A study of Rattus norvegicus with 16 samples.

Results

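The transcripts of 3 fibroblast growth factor (FGF) ligands, Fgf1, Fgf2 and Fgf18, and of 3 FGF receptors, Fgfr1, Fgfr2 and Fgfr3, were followed in rat knee cartilage. They were chosen by gene name and not by a measured value, although earlier results of these data were known. They are 6 of the 23552 genes in the deposited expression table. The series holds 16 RNA-seq libraries in 4 groups of 4, all from rats aged 10 weeks. The groups are cartilage with osteoarthritis that was given coacervate, cells and drug (library names CCD), the same given hyaluronic acid (HA, a matrix polysaccharide), cells and drug (HCD), osteoarthritic cartilage without those treatments (PBS), and healthy cartilage (Sham). They are called coacervate, HA, osteoarthritic and healthy libraries here, and the 3 groups other than healthy share the disease. The labels name neither the drug, the cells, the make-up of the coacervate nor the way osteoarthritis was induced. They also do not say whether replicates are separate animals or pools, so p-values measure only the spread between these samples, which may be technical.

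FGFs are secreted proteins that bind receptor tyrosine kinases on the cell surface together with heparan sulphate. The bound receptors pair up and signal through the adaptor Frs2, Ras and the MAP kinases, and induced inhibitors such as the Sprouty proteins dampen the signal. In articular cartilage, FGF2 is stored in the matrix around chondrocytes and is released on injury, and FGF18 stimulates chondrocytes to make matrix, mainly through FGFR3. FGFR3 restrains chondrocyte proliferation in the growth plate, and FGFR1 has been linked in mice to cartilage breakdown.

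Library totals were 36988722 to 50725189 counts. The leading principal component of all tested genes set osteoarthritic replicates 2 and 3 away from the other 14 libraries, with scores of 69.56 and 58.93 against -32.26 to 12.68, and this component held 32.51% of the variance. Haemoglobin transcripts made up 20.6% and 20.0% of their counts, against 9.57 to 15.7% in the others, and their scaling factors were 0.839 and 0.877, against 0.976 to 1.07. The part of blood RNA in the differences below was not tested. In the paragraphs on each member below, a log2 difference involving the osteoarthritic group is also given without these libraries, except for Fgf2. The cartilage label was checked against 15 cartilage genes, all of which were in the table. Col2a1, the main collagen of cartilage, lay between 169 and 593 FPKM, and Acan, its large proteoglycan, between 8.14 and 38.9 FPKM. At most 1 of the 15 genes was at 0 in any library. The 15 genes held 0.204 to 0.575% of the counts. Red blood cell genes held 10.2 to 21.0%, fibroblast genes 0.712 to 2.29% and skeletal muscle genes 0.346 to 2.08%, and genes of bone and fat were detected in every library as well. In such bulk samples, fewer cells of a type and less RNA per cell cannot be told apart.

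Compared per gene length (FPKM, fragments scaled to gene length and library depth), the receptors stood above the ligands. The mean level over the 16 libraries was 33.7 FPKM for Fgfr1 (18.7 to 53.0), 11.2 FPKM for Fgfr2 (6.36 to 15.9) and 5.56 FPKM for Fgfr3 (3.49 to 8.63). Fgf1 averaged 2.02 FPKM (1.01 to 2.69), Fgf18 averaged 1.88 FPKM (0.77 to 3.31) and Fgf2 averaged 0.247 FPKM (0 to 0.56). The order Fgfr1, Fgfr2, Fgfr3 held in 16 of 16 libraries, Fgfr3 lay above both Fgf1 and Fgf18 in all 16, and Fgf2 was the lowest member in all 16. Fgf1 was above Fgf18 or level with it in 10 libraries and below it in 6. They were level in HA replicate 4, at 1.88 FPKM each. The difference between them over all libraries was not tested. The order varied by group. HA libraries had 1.78 ± 0.134 FPKM of Fgf1 and 2.29 ± 0.451 of Fgf18, while healthy libraries had 2.41 ± 0.204 FPKM of Fgf1 and 1.58 ± 0.601 of Fgf18 and Fgf1 was the higher in all 4. Among the 14337 genes tested, 85.8% had a lower mean level than Fgfr1, 58.7% a lower one than Fgfr2 and 12.9% a lower one than Fgf18.

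Genes were tested with edgeR's quasi-likelihood test when they reached 1 FPKM in at least 4 of the 16 libraries. Of the members, 5 passed this filter, Fgf1 and the receptors in 16 libraries and Fgf18 in 14. Fgf2 reached 1 FPKM in 0 libraries and is described by its counts. No tested member passed an adjusted p of 0.05 in any of the 6 comparisons between groups, where the share of all tested genes called was 0.502% for osteoarthritic against healthy, 0.146% for coacervate against osteoarthritic, 0.16% for HA against healthy and 0% in the other 3. At an unadjusted p below 0.05, 1 of the 5 members was found for osteoarthritic against healthy, 1 for coacervate against HA, 2 for HA against healthy and 0 in the other 3. The share of all tested genes at that unadjusted level was 17.8%, 10.4% and 8.25% in those 3 comparisons, and in the other 3 it was 21.8% for coacervate against osteoarthritic, 6.33% for HA against osteoarthritic and 3.85% for coacervate against healthy. DESeq2 and limma on log2 FPKM also called 0 members in each of the 6. Comparisons that share a group are not independent of each other. Differences below are on the log2 scale with their standard error (SE), and levels within a gene are normalised counts scaled to library size (CPM).

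**Figure D1:**
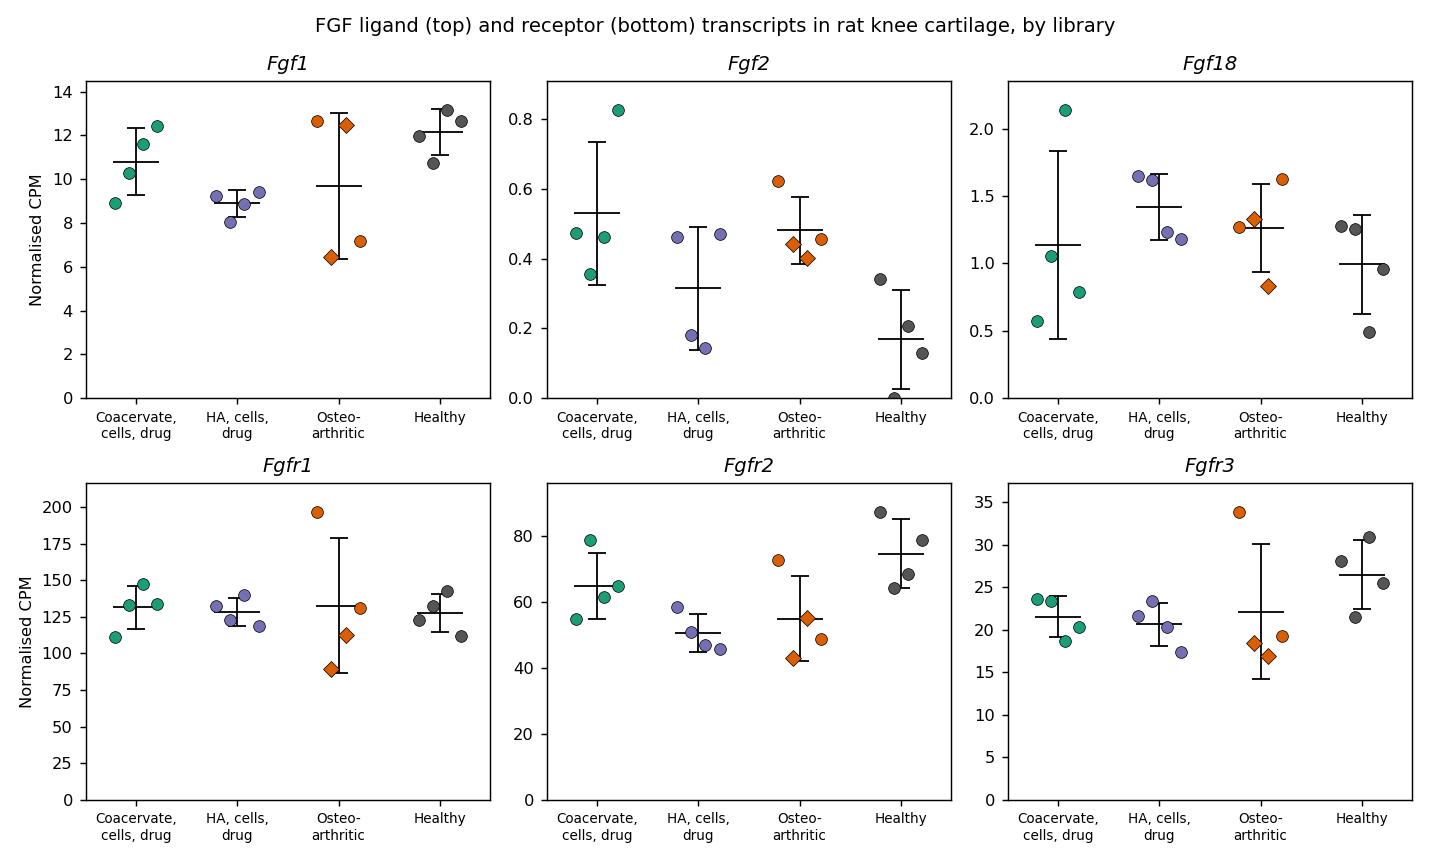
Normalised CPM of the 6 genes (y axis, a separate linear scale per gene) in each library, by group on the x axis. Points are libraries, horizontal bars the group means and whiskers 1 SD (n = 4 per group), and diamonds mark osteoarthritic replicates 2 and 3. Fgfr1 means lay between 128 and 133 CPM in all 4 groups, with the lowest in healthy libraries. Healthy libraries also held the lowest mean of Fgf2 and Fgf18 and the highest of Fgf1, Fgfr2 and Fgfr3.

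Fgf1 (ENSRNOG00000013867, rn6 chr18:32273770-32359824, plus strand) encodes a ligand that can activate all FGF receptors. It had 8.92, 10.3, 11.6 and 12.4 CPM in coacervate libraries, 9.23, 8.06, 8.86 and 9.43 CPM in HA libraries, 12.7, 6.43, 12.5 and 7.16 CPM in osteoarthritic libraries, and 12, 10.7, 13.2 and 12.6 CPM in healthy libraries. Every HA library lay below every healthy library, and the osteoarthritic libraries split into a pair near the healthy level and a pair (replicates 2 and 4) below every other library. The mean was 8.90 ± 0.606 CPM in HA libraries and 12.1 ± 1.05 CPM in healthy libraries (SD, n = 4 each), a log2 difference of -0.45 ± 0.20 SE (edgeR, adjusted p = 0.57). Groups that did not overlap and were lower were found for 4.76% of all tested genes in this comparison. Osteoarthritic libraries averaged 9.68 ± 3.35 CPM, and differed from healthy by -0.33 ± 0.20 (edgeR, adjusted p = 0.389). The difference from healthy was -0.29 without osteoarthritic replicates 2 and 3. Coacervate libraries averaged 10.8 ± 1.54 CPM, with log2 differences of 0.28 ± 0.20 from HA, 0.16 ± 0.20 from osteoarthritic and -0.17 ± 0.20 from healthy libraries, none of which passed. The difference from osteoarthritic libraries was 0.12 without replicates 2 and 3.

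Fgf2 (ENSRNOG00000017392, rn6 chr2:124081072-124134681, plus strand), the ligand stored in the matrix, was at the edge of detection. It had 24, 18, 22 and 41 counts in coacervate libraries, 23, 9, 7 and 22 counts in HA libraries, 30, 18, 17 and 21 counts in osteoarthritic libraries, and 16, 0, 8 and 6 counts in healthy libraries. All coacervate and all osteoarthritic libraries lay above all healthy libraries, while HA libraries overlapped with healthy ones. Groups that did not overlap and were higher were found for 3.14% of all tested genes in osteoarthritic against healthy and 1.75% in coacervate against healthy, although Fgf2 itself was not among those tested. Osteoarthritic replicates 1 and 4 alone, with 30 and 21 counts, also lay above all healthy libraries. The count of 0 in a healthy library allows up to 3 counts, which is counting error alone. Osteoarthritic libraries averaged 0.481 ± 0.0974 CPM and healthy libraries 0.169 ± 0.143 CPM, a ratio of 2.85. This gave the smallest p that 70 assignments of 4 against 4 libraries allow in a two-sided exact permutation test (p = 0.0286, adjusted over the 6 comparisons 0.0858). Coacervate libraries averaged 0.530 ± 0.205 CPM, a ratio to healthy of 3.14 with the same exact permutation p of 0.0286 (adjusted 0.0858), and HA libraries 0.315 ± 0.177 CPM, a ratio to healthy of 1.87 (exact permutation p = 0.257). In an edgeR fit with no filter, osteoarthritic against healthy was 1.53 ± 0.70 on the log2 scale (adjusted p = 0.363). The 3' end of Fgf2 overlaps Nudt6, a gene on the opposite strand with a mean of 86.1 counts. Whether counting used strand is not given in the sources used here, so reads of these genes cannot be told apart with certainty.

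Fgf18 (ENSRNOG00000048389, rn6 chr10:18047109-18063391, minus strand), the ligand that acts on chondrocytes mainly through Fgfr3, had 19 to 102 counts per library. Its levels were 0.572, 1.05, 2.14 and 0.787 CPM in coacervate libraries, 1.65, 1.62, 1.24 and 1.18 CPM in HA libraries, 1.27, 1.33, 0.830 and 1.63 CPM in osteoarthritic libraries, and 1.28, 1.25, 0.489 and 0.960 CPM in healthy libraries. All groups overlapped, and coacervate libraries alone covered nearly the whole range. The widest difference of means was HA over healthy, 0.51 on the log2 scale with a 95% interval of -0.30 to 1.31. Osteoarthritic against healthy was 0.34 ± 0.38 (edgeR, adjusted p = 0.649), with an interval of -0.47 to 1.15, so at this depth any ratio from 0.722 to 2.21 lay within the interval. The difference was 0.525 without osteoarthritic replicates 2 and 3.

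Fgfr1, the most abundant of the receptors (ENSRNOG00000016050, rn6 chr16:71266248-71319449, minus strand), had nearly equal means. It had 111, 133, 147 and 134 CPM in coacervate libraries, 132, 123, 140 and 119 CPM in HA libraries, 197, 89.4, 113 and 131 CPM in osteoarthritic libraries, and 123, 133, 143 and 112 CPM in healthy libraries. The osteoarthritic group held both the highest and the lowest library of all 16. Osteoarthritic libraries averaged 132.5 ± 46.2 CPM and healthy libraries 128 ± 13.3 CPM, a log2 difference of 0.06 ± 0.18 with an interval of -0.33 to 0.44 (edgeR, adjusted p = 0.886). Without osteoarthritic replicates 2 and 3 the difference was 0.36, and without replicate 1 it was -0.19. With all libraries, in the other 5 comparisons the log2 difference lay between -0.05 and 0.04, and all 5 intervals lay within -0.43 and 0.42. HA and coacervate libraries differed from osteoarthritic ones by -0.36 and -0.32 without osteoarthritic replicates 2 and 3, and neither passed. A gene on the opposite strand, AABR07026305.1 with a mean of 40.7 counts, lies inside Fgfr1.

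Fgfr2, known in the skeleton for its role in bone-forming cells, was the member with the smallest p in the test of all 4 groups together (edgeR, unadjusted p = 0.0121, adjusted p = 0.239, where 0.293% of all genes were called). It had 54.8, 78.6, 61.4 and 64.7 CPM in coacervate libraries, 58.5, 50.7, 47.0 and 45.6 CPM in HA libraries, 72.7, 42.9, 55.1 and 48.7 CPM in osteoarthritic libraries, and 87.4, 64.1, 68.5 and 78.7 CPM in healthy libraries. Every HA library lay below every healthy library, and among osteoarthritic libraries replicate 1 alone reached the healthy range. As given for Fgf1, 4.76% of all tested genes were apart in that direction in HA against healthy. HA libraries averaged 50.5 ± 5.78 CPM and healthy libraries 74.7 ± 10.5 CPM, a log2 difference of -0.57 ± 0.16 with an interval of -0.90 to -0.23 (edgeR, adjusted p = 0.254). With these groups fitted alone the difference was -0.57 and passed (edgeR, adjusted p = 0.0306), in a fit that called 2.76% of all genes.

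For Fgfr2 in osteoarthritic against healthy cartilage the means were 54.8 ± 12.9 CPM and 74.7 ± 10.5 CPM, a log2 difference of -0.45 ± 0.16 (edgeR, unadjusted p = 0.0132, adjusted p = 0.21). Without osteoarthritic replicate 1 it was -0.60 and passed (edgeR, adjusted p = 0.0372), in a fit that called 7.93% of all genes, and without replicates 2 and 3 it was -0.30 and did not (adjusted p = 0.455). Coacervate libraries averaged 64.9 ± 10.1 CPM, a mean between those of osteoarthritic and healthy libraries. They differed from HA libraries by 0.36 ± 0.16 (edgeR, unadjusted p = 0.0372, adjusted p = 0.435), from osteoarthritic libraries by 0.24 ± 0.16 (adjusted p = 0.367) and from healthy libraries by -0.20 ± 0.16, with overlap in each case. The difference from osteoarthritic libraries was 0.095 without replicates 2 and 3 (edgeR, adjusted p = 0.853).

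Fgfr3, the receptor that restrains growth plate chondrocytes, had 23.6, 23.4, 18.7 and 20.3 CPM in coacervate libraries, 21.6, 23.3, 20.3 and 17.3 CPM in HA libraries, 33.9, 18.5, 16.9 and 19.3 CPM in osteoarthritic libraries, and 28.1, 21.5, 30.9 and 25.5 CPM in healthy libraries. Osteoarthritic replicate 1 was the highest of all 16 libraries, and the other 3 osteoarthritic libraries lay below every healthy library. Osteoarthritic libraries averaged 22.1 ± 7.91 CPM and healthy libraries 26.5 ± 4.02 CPM, a log2 difference of -0.26 ± 0.19 with an interval of -0.67 to 0.15 (edgeR, adjusted p = 0.485). Without osteoarthritic replicate 1 the difference was -0.53 and passed (edgeR, adjusted p = 0.0423), again in the fit that called 7.93% of all genes, and without replicates 2 and 3 it was 0.01. HA libraries were -0.36 and coacervate libraries -0.30 from healthy on the log2 scale, and neither passed. From osteoarthritic libraries, coacervate libraries differed by -0.04 and HA libraries by -0.10, and by -0.31 and -0.37 without osteoarthritic replicates 2 and 3.

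**Figure D2:**
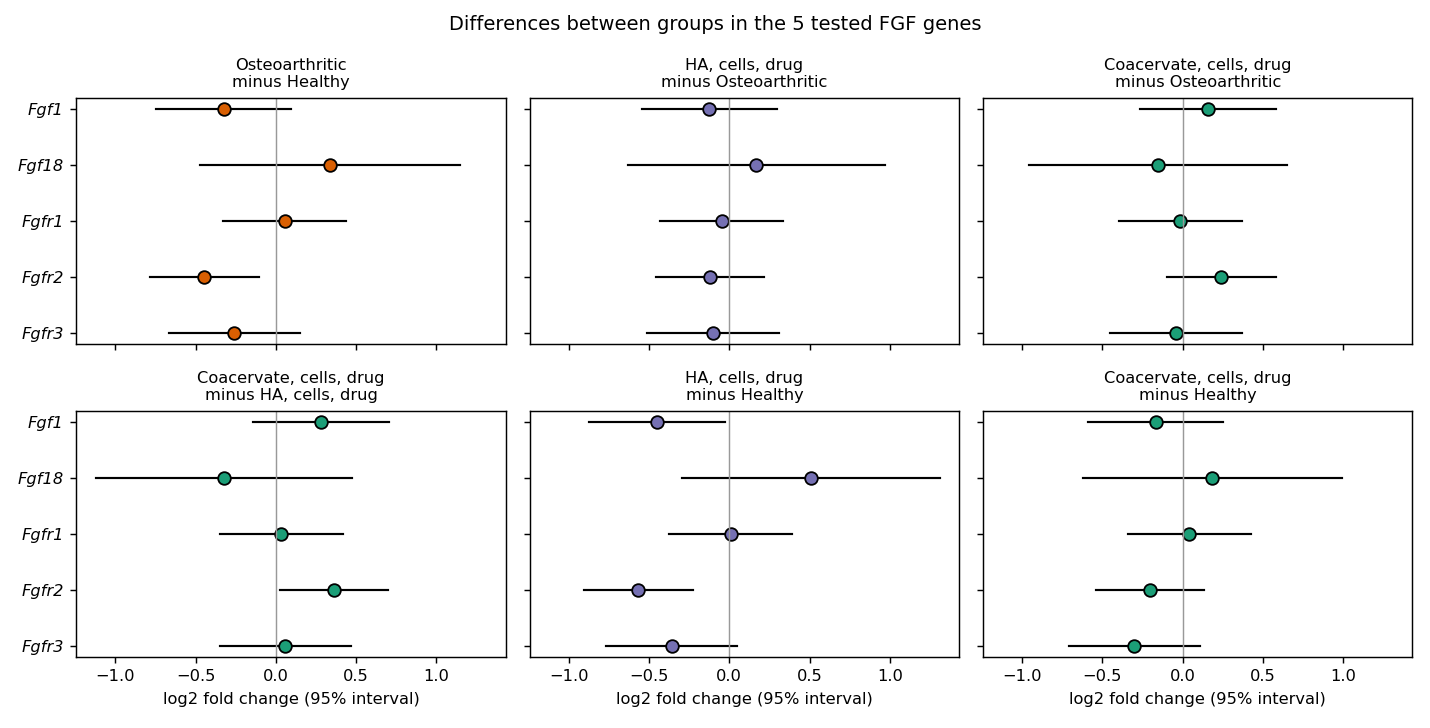
Log2 fold change (x axis) of the 5 tested genes (y axis) in each of the 6 comparisons, with the 95% interval of the edgeR fit. The intervals of Fgfr2 leave out 0 in osteoarthritic and HA minus healthy and in coacervate minus HA, that of Fgf1 leaves out 0 in HA minus healthy, and no gene passed after adjustment.

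The make-up of the receptor transcripts was compared per gene length, as a description. Fgfr1 made up 66.1 ± 3.18% of the summed receptor FPKM in coacervate libraries, 69.7 ± 2.31% in HA libraries, 68.3 ± 2.78% in osteoarthritic libraries and 61.7 ± 4.40% in healthy libraries (SD, n = 4 each). The share of Fgfr2 was 23.1 ± 2.32%, 19.5 ± 1.67%, 20.6 ± 2.43% and 25.7 ± 3.97% in the same order of groups, and that of Fgfr3 was 10.4 ± 1.91%, 10.6 ± 1.097%, 10.9 ± 1.47% and 12.1 ± 1.28%. HA libraries, at 67.7 to 72.5% Fgfr1, lay above every healthy library, at 57.9 to 66.8%. Osteoarthritic libraries had 69.9, 65.0, 67.0 and 71.1%, and replicate 2 alone lay within the healthy range. Coacervate libraries, at 62.9 to 70.0%, overlapped with it. These shares are not separate from the levels above. Fgfr1 itself averaged 128.3 CPM in HA and 127.6 CPM in healthy libraries, while the means of Fgfr2 and Fgfr3 were lower in HA. Among single genes, 5.08% of those tested had groups apart and higher in HA against healthy. Fgfr4, a receptor prominent in liver, contributed 0.0552 to 1.27% and is named after its values were seen. The ratio of Fgfr1 to Fgfr3 in FPKM was 6.57 ± 1.42 in coacervate, 6.64 ± 0.812 in HA, 6.38 ± 0.960 in osteoarthritic and 5.17 ± 0.921 in healthy libraries.

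**Figure D3:**
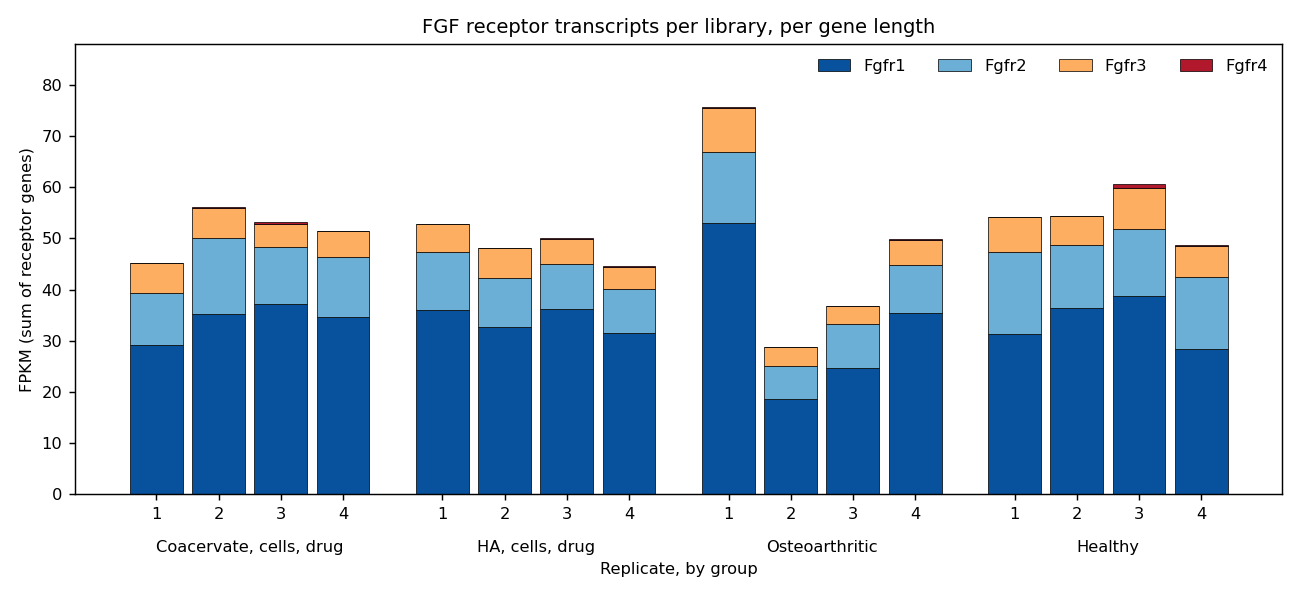
Summed FPKM of the 4 receptor genes in each library (y axis), stacked by gene, with replicates of each group on the x axis. The sum was 28.7 to 75.8 FPKM among osteoarthritic libraries, wider than the 48.7 to 60.6 FPKM of healthy libraries, and Fgfr1 was the largest part of every bar. The lowest sums, 28.7 and 36.9 FPKM, were those of osteoarthritic replicates 2 and 3, and FPKM was not rescaled between libraries.

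Across the 16 libraries, 2 of the 15 pairs of members varied together after adjustment. Log2 levels of Fgf1 and Fgfr2 had a Pearson r of 0.761 and a Spearman rho of 0.765 (permutation p = 0.00066, adjusted over 15 pairs 0.0099), and r was 0.666 without the 2 libraries farthest from the median. Fgfr2 and Fgfr3 had r = 0.683 and rho = 0.694 (permutation p = 0.00378, adjusted 0.0284), and r = 0.616 without the 2 farthest. Without osteoarthritic replicates 2 and 3 these values were 0.771 and 0.663, and for deviations from the group means they were 0.61 and 0.62. Fgfr1 and Fgfr3 had r = 0.512 (permutation p = 0.042, adjusted 0.21), which was 0.0534 without the 2 farthest libraries, osteoarthritic replicates 1 and 2, and so rests on them. Fgf18 had r = -0.299 against its receptor Fgfr3 (permutation p = 0.26) and r = -0.386 against Fgf1 (permutation p = 0.139). The values of each pair share library, depth and scaling.

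**Figure D4:**
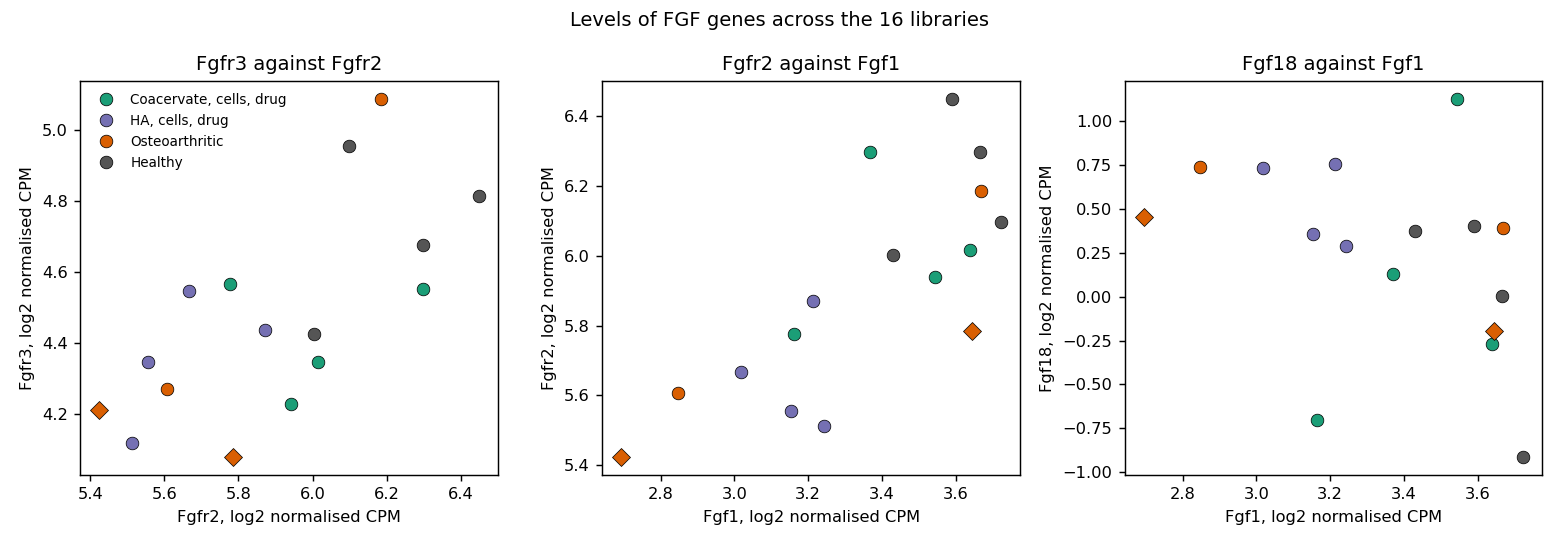
Log2 normalised CPM of one member against another over the 16 libraries, coloured by group, with osteoarthritic replicates 2 and 3 as diamonds. Fgfr3 against Fgfr2 (r = 0.683) and Fgfr2 against Fgf1 (r = 0.761) run upward, and Fgf18 against Fgf1 (r = -0.386) does not.

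The promoters of the receptor pair that varied together are shown because both are rich in GC and hold the GC box that SP1 factors bind. They run from 250 bases before to 50 after the start site in the RefSeq annotation of build GRCr8, which is not the build of the counts, at chr1:194280865-194281164 for Fgfr2 and chr14:81227160-81227459 for Fgfr3, both on the minus strand. Capitals mark the letters GGGCGG or their reverse complement CCGCCC.
Fgfr2: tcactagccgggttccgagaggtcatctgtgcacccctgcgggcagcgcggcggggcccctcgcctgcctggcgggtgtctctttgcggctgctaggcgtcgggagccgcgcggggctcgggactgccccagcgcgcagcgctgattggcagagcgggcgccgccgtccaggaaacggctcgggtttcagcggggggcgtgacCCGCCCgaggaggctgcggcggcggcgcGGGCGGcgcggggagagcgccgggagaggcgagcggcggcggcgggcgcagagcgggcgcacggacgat
Fgfr3: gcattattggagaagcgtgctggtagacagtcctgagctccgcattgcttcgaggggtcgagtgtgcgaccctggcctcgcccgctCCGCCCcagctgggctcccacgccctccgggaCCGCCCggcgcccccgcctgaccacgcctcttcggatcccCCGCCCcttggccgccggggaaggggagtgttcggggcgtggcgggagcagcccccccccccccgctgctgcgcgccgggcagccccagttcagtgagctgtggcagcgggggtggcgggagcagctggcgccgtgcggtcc
The Fgfr2 window holds 2 GC boxes and the Fgfr3 window 3, none overlapping another, and 33.1% of 33469 RefSeq rat promoters of the same length hold at least 1 on either strand. Their GC content is 77.7% and 74.7%, against a median of 51.7%, and 98.2% and 96.5% of the promoters have a lower one. The GC box holds only G and C, so the 33.1% over all promoters is no like measure for windows this rich in GC. TATAAA, found in 14.2% of promoters on either strand, is in neither window. The window of Fgf2 has a GC content of 49.7% and 0 GC boxes, and that of Fgf18 has 81.3% and 1. That of Fgf1, which had a higher r with Fgfr2 (0.761) than Fgfr3 had (0.683), has 48.3% and 1. It is not shown because its strand is minus in GRCr8 and plus in rn6. These matches describe letters and not binding, and any part of the promoters in the shared variation was not tested. In build rn6, that of the counts, Fgfr2 (ENSRNOG00000016374) spans chr1:200590953-200696928 and Fgfr3 (ENSRNOG00000016818) spans chr14:82273070-82287706, both on the minus strand.

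The genes whose levels were most like each member's were taken as the 3 highest Pearson r over the 16 libraries among 8434 tested genes with a mean of at least 5 FPKM. For Fgf1 they were Plin1, a coat protein of fat droplets (r = 0.90), Gpd1, a glycerol phosphate dehydrogenase (0.863), and Nnat (0.831). For Fgfr2 they were the secreted Wnt inhibitor Sfrp1 (0.946), the chemokine Cxcl12 (0.897) and Acsf2 (0.864). For Fgfr1 they were Gpc1, a heparan sulphate proteoglycan of the cell surface (0.928), Hdac7 (0.896) and Scap (0.89), and for Fgfr3 they were Slit2 (0.826), Xylt2 (0.814), which starts the sugar chains of proteoglycans, and Cadm1 (0.807). For Fgf18 they were B4galt5 (0.848), Pkm (0.821) and Wdfy1 (0.792), and for the sparsely counted Fgf2 they were Acss1 (0.753), Klf16 (0.683) and Stx2 (0.677). Sfrp1 averaged 36.1 ± 5.33 CPM in coacervate and 30.5 ± 3.75 CPM in HA libraries. It averaged 30.5 ± 7.21 CPM in osteoarthritic and 39.7 ± 2.06 CPM in healthy libraries. Sfrp1 was picked by its r with Fgfr2 over these libraries, so the likeness of their group means is no separate result.

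Markers of cell types moved with some members. Fgfr2 had r = 0.622 and rho = 0.788 with the summed level of 11 skeletal muscle genes (permutation p = 0.00714 and 0.00046, adjusted over 60 relations 0.141 and 0.0276), and r = 0.90 without the 2 libraries farthest from the median, coacervate replicates 2 and 3. For deviations from the group means r was 0.367. That sum was 6138 to 21190 CPM in coacervate, 4176 to 4905 CPM in HA, 4122 to 6273 CPM in osteoarthritic and 6021 to 9724 CPM in healthy libraries, with no listed gene at 0. Fgfr1 had r = 0.72 and rho = 0.685 with the sum of 10 fibroblast genes (permutation p = 0.00055 and 0.00456, adjusted 0.033 and 0.102), with r = 0.716 without the 2 farthest libraries and 0.60 without osteoarthritic replicates 2 and 3. The fibroblast sum was 11430 to 17840 CPM in coacervate, 13200 to 20660 CPM in HA, 8490 to 22080 CPM in osteoarthritic and 9781 to 14940 CPM in healthy libraries. Fgfr1 also had r = 0.611 with the cartilage sum, 0.601 with the endothelial sum and -0.624 with the red blood cell sum. These did not pass (permutation p = 0.00889, 0.0152 and 0.01, adjusted 0.141 each). Without osteoarthritic replicates 2 and 3 these r were 0.434, 0.311 and -0.329. Fgf1, whose nearest pattern was the fat gene Plin1, had r = 0.339 and rho = 0.541 with the sum of 8 adipocyte genes (permutation p = 0.201 and 0.0334, adjusted 0.595 and 0.274), and r = -0.0764 without the 2 farthest libraries, osteoarthritic replicates 3 and 4. The adipocyte sum was 289 to 380 CPM in coacervate, 252 to 346 CPM in HA, 139 to 999 CPM in osteoarthritic and 372 to 487 CPM in healthy libraries. Without osteoarthritic replicates 2 and 3, r of Fgf1 with the adipocyte sum was 0.801. Plin1 is among the 8 adipocyte genes, so this sum and the likeness to Plin1 are not separate. The part of these cell types in the differences between groups was not tested.

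Beyond the members, 102 genes of the FGF pathway were listed by role, of which 69 passed the filter and 0 passed the test in any of the 6 comparisons. At an unadjusted p below 0.05, edgeR gave 14 of the 69 for osteoarthritic against healthy, 12 for coacervate against osteoarthritic, 9 for HA against healthy, 7 for coacervate against HA, 4 for coacervate against healthy and 1 for HA against osteoarthritic. These are 20.3%, 17.4%, 13%, 10.1%, 5.8% and 1.45% of the 69, beside 17.8%, 21.8%, 8.25%, 10.4%, 3.85% and 6.33% of all tested genes. At an adjusted p of 0.05 DESeq2 called 2, 3, 2, 2, 1 and 0 of them in the same order, while it called 2.92%, 5.91%, 1.11%, 2.31%, 0.126% and 0.0559% of all genes, and limma called 0 of them in each. For osteoarthritic against healthy the median log2 difference was -0.11 over the 69 genes, 24 of them positive and 45 negative, against 0.02 over all tested genes. For coacervate against osteoarthritic it was 0.06 against -0.01, with 43 positive and 25 negative. These comparisons share the osteoarthritic libraries.

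Of the 20 other FGF ligands, 4 were tested. Fgf7, a ligand of Fgfr2 made by mesenchymal cells, had the highest level at 10.3 FPKM and differed by -0.25 ± 0.19 for osteoarthritic against healthy (edgeR, adjusted p = 0.496). Fgf12, which stays inside the cell, averaged 2.68 FPKM and Fgf23, the phosphate hormone of bone, 0.657 FPKM.

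Of the 22 other receptors and co-receptors, 11 were tested. Sdc1, a heparan sulphate proteoglycan, had 39.1, 38.2, 38.6 and 40.0 CPM in coacervate libraries, 52.5, 64.9, 57.6 and 43.1 CPM in HA libraries, 61.9, 44.5, 46.6 and 63.3 CPM in osteoarthritic libraries, and 54.6, 51.2, 65.3 and 70.5 CPM in healthy libraries. All 4 coacervate libraries lay below all 12 others. The log2 difference of coacervate libraries was -0.63 ± 0.15 from healthy (edgeR, adjusted p = 0.696), -0.48 ± 0.15 from HA (adjusted p = 0.197) and -0.47 ± 0.15 from osteoarthritic (adjusted p = 0.127). Groups that did not overlap and were lower were found for 1.91%, 5.36% and 3.13% of all tested genes in these comparisons. DESeq2 called Sdc1 in coacervate against healthy (adjusted p = 0.0441, beside 0.126% of all genes) and against osteoarthritic (adjusted p = 0.0436, beside 5.91%), and not against HA. Fgfrl1, an FGF receptor without a kinase domain, averaged 14.1 ± 2.15 CPM in osteoarthritic and 11.3 ± 0.946 CPM in healthy libraries (0.32 ± 0.13, edgeR, adjusted p = 0.225). Ncam1, the remaining gene named by the rule, had an adjusted p of 0.548 in edgeR's test of the 4 groups.

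Of the 13 heparan sulphate enzymes 12 were tested, and the smallest p in the 4-group test belonged to Hs3st1, Sulf2 and Hs2st1 (edgeR, adjusted p = 0.373, 0.376 and 0.382). Of the 22 signal transduction genes 21 were tested. Ptpn11, the phosphatase SHP2 that relays receptor signals to Ras, averaged 166 ± 26.8 CPM in osteoarthritic and 219 ± 27.6 CPM in healthy libraries without overlap, as 3.19% of all tested genes did in that direction (-0.40 ± 0.12, edgeR, adjusted p = 0.173). It averaged 210 ± 14.1 CPM in coacervate libraries, which did not overlap with osteoarthritic ones either, as for 2.47% of genes (0.35 ± 0.12, edgeR, adjusted p = 0.156). Mapk3, a kinase of the pathway, had an adjusted p of 0.318 in edgeR's 4-group test. DESeq2 called Mapk3 in coacervate against osteoarthritic (-0.27, adjusted p = 0.045, beside 5.91% of all genes).

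Of the 25 feedback inhibitors and transcriptional targets, 21 were tested. Timp1, an inhibitor of matrix metalloproteinases induced by many growth factors, had 32.3, 21.1, 27.6 and 20.5 CPM in coacervate libraries, 38.5, 56.9, 49.0 and 33.0 CPM in HA libraries, 48.5, 35.9, 39.9 and 61.0 CPM in osteoarthritic libraries, and 23.3, 27.0, 25.4 and 25.8 CPM in healthy libraries. All osteoarthritic and HA libraries lay above all coacervate and healthy libraries. Groups apart in these directions were found for 3.14% of all tested genes in osteoarthritic over healthy and 5.08% in HA over healthy. The shares were 3.13% for coacervate below osteoarthritic and 5.36% for coacervate below HA. The log2 difference was 0.87 ± 0.20 for osteoarthritic against healthy (edgeR, adjusted p = 0.0649), -0.87 ± 0.20 for coacervate against osteoarthritic (adjusted p = 0.0822), -0.80 ± 0.19 for coacervate against HA (adjusted p = 0.155) and 0.81 ± 0.19 for HA against healthy (adjusted p = 0.131). Whether Timp1 passed depended on the method. DESeq2 called it in each of these comparisons (adjusted p = 0.00275, 0.00326, 0.0128 and 0.0129), beside 2.92%, 5.91%, 2.31% and 1.11% of all genes, and limma in none. When osteoarthritic replicates 2 and 3 were left out, Timp1 was 1.11 in osteoarthritic against healthy and passed (edgeR, adjusted p = 0.0226). That fit called 1.18% of all genes, among them Sulf2 (1.08), Extl3 (0.775) and Ext2 (0.547) (edgeR, adjusted p = 0.0238, 0.0385 and 0.0303). The fit with replicate 1 left out called 7.93% of all genes in that comparison. It called Timp1 (0.85), Spry4 (-0.81), Mmp13 (-0.80) and Ptpn11 (-0.48) (edgeR, adjusted p = 0.0385, 0.0268, 0.0477 and 0.0416). Spry4, a Sprouty inhibitor of the pathway, averaged 11.2 ± 1.01 CPM in coacervate, 8.73 ± 1.121 CPM in HA, 8.20 ± 2.195 CPM in osteoarthritic and 12.7 ± 2.54 CPM in healthy libraries (osteoarthritic against healthy -0.63 ± 0.18, edgeR, adjusted p = 0.155). Snai1, a transcription factor, averaged 15.1 ± 3.62 CPM in osteoarthritic and 25.0 ± 7.76 CPM in healthy libraries (-0.73 ± 0.24, edgeR, adjusted p = 0.189). In osteoarthritic against healthy DESeq2 called Spry4 (adjusted p = 0.041, beside 2.92% of all genes) and not Snai1. Snai1 was called by DESeq2 in HA against healthy (adjusted p = 0.0393, beside 1.11%). Dusp6, a phosphatase often read as an output of FGF signalling and named here outside the rule, averaged 47.8 ± 7.56 CPM in osteoarthritic and 46.2 ± 2.66 CPM in healthy libraries (0.05 ± 0.12, edgeR, adjusted p = 0.841).

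**Figure D5:**
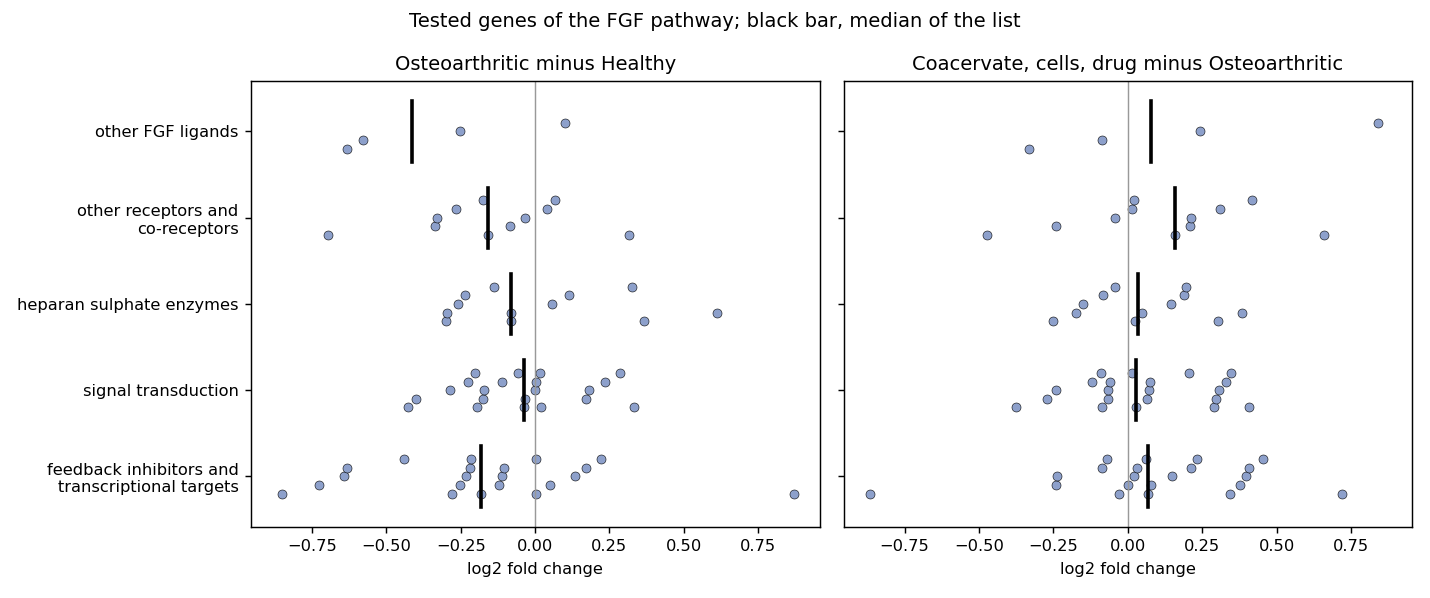
Log2 fold change (x axis) of each tested pathway gene (points) in 5 lists (y axis) for osteoarthritic minus healthy and for coacervate minus osteoarthritic, with black bars at the list medians. Medians of all 5 lists lay below 0 in the comparison on the left and above 0 in the one on the right, and Timp1 was the point at 0.87 and at -0.87.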

How the data were processed

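RNA from rat knee cartilage was sequenced in 16 libraries. Per the labels' protocols, polyadenylated RNA was captured from samples with a RIN over 7, and dUTP libraries keep the strand. Per the submitters' processing notes, the build is rn6 and the tools, with no stated roles, include edgeR, DESeq2, StringTie 2.1.6, HISAT2 2.2.1 and cutadapt 1.9. Each gene and library has, per the file headers, a raw count and an FPKM value in the deposited table, the FPKM scaled by the authors to length and depth. Among low counts even values were commoner (6480 values of 2, 4576 of 3), so mates of a pair may have been counted separately.

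Counts were tested with edgeR 4.0.16 (R 4.3.3) in 1 quasi-likelihood fit with 4 group means, TMM scaling and Benjamini-Hochberg adjustment over all 14337 genes with at least 1 FPKM in at least 4 libraries (threshold 0.05). Log2 levels used a prior count of 2. Fgf2, below that filter, was compared by exact permutation of its CPM. Correlations used 100000 permutations. Alternatives were other scalings and filters, DESeq2 1.42.0, limma 3.58.1 on log2 FPKM with pseudocounts of 1 and 0.1, 2 groups alone, a replicate block and leaving out libraries. The fit was tested on simulated counts. No libraries were identical. Named pathway genes were those passing in any comparison and the 3 with the smallest 4-group p in each list, of which 1 is not reported here. Members and lists were chosen with earlier results of these data known. The genes Fgf8, Fgf15, Fgf19, Fgf20, Klb, Gpc5, Hspg2 and Crkl were not used here.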

Additional observations from a re-analysis of the deposited data

Results flagged for a closer look

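Of 36 sets of 4 libraries examined, 4 held a library far from the other 3 by Dixon's test, and chance gives about 1 in 20. Fgfr3 was 33.9 CPM in osteoarthritic replicate 1, against 16.9 to 19.3 CPM in the other 3 (gap over range 0.859). The Fgfr1 to Fgfr3 ratio in FPKM was 6.54 in healthy replicate 2, against 4.62 to 4.88 in the other 3 (0.863). The Fgfr2 to Fgfr3 ratio was 1.74 in coacervate replicate 1, against 2.40 to 2.52 (0.841), and 1.66 in healthy replicate 3, against 2.24 to 2.34 (0.861).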

How the results depend on the processing

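Over 27 settings, 940 values of the members were recomputed, of which 895 kept their direction and their side of the threshold, 42 changed sign and 3 came to pass. The calls were Fgfr2 and Fgfr3 in osteoarthritic against healthy without osteoarthritic replicate 1, which made 2 members called beside 7.93% of all genes, and Fgfr2 in HA against healthy with these 2 groups alone, which made 1 beside 2.76% of all genes. Leaving out each library gave 0 to 2 members called in the first of these comparisons and 0 in the other 5.

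With limma, at pseudocounts of 1 and 0.1, log2 differences changed sign for Fgf1 in HA against osteoarthritic (0.034 and 0.076), Fgfr1 in coacervate against HA (-0.005 and -0.005), in coacervate against osteoarthritic (0.14 and 0.15), in HA against osteoarthritic (0.15 and 0.16) and in osteoarthritic against healthy (-0.13 and -0.13), Fgfr2 in HA against osteoarthritic (0.038 and 0.046), and Fgfr3 in coacervate (0.09 and 0.12) and HA (0.068 and 0.092) against osteoarthritic. FPKM was not rescaled between libraries, and the median of all genes moved by -0.12 and -0.14 for osteoarthritic against healthy, 0.13 and 0.16 for HA against osteoarthritic, and 0.10 and 0.12 for coacervate against osteoarthritic. Without osteoarthritic replicates 2 and 3, a setting chosen after seeing the data, Fgf18 in HA against osteoarthritic was -0.023 and Fgfr3 in osteoarthritic against healthy was 0.008.

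Leaving out each library gave these ranges of log2 difference where the sign changed. For Fgf1 they were -0.007 to 0.30 in coacervate and -0.29 to 0.018 in HA against osteoarthritic. For Fgf18 they were -0.31 to 0.40 in coacervate against healthy and -0.65 to 0.058 in coacervate against osteoarthritic. For Fgfr1 they were -0.025 to 0.11 in coacervate against HA, -0.017 to 0.11 in coacervate and -0.049 to 0.061 in HA against healthy, -0.17 to 0.23 in coacervate and -0.21 to 0.20 in HA against osteoarthritic, and -0.19 to 0.21 in osteoarthritic against healthy. For Fgfr2 it was -0.23 to 0.031 in HA against osteoarthritic. For Fgfr3 they were -0.013 to 0.12 in coacervate against HA, and -0.16 to 0.23 in coacervate and -0.22 to 0.17 in HA against osteoarthritic. The cause was not tested.

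Pathway genes called, 0 as reported, were 5 with DESeq2 and 1 with upper quartile scaling in the 4-group test. DESeq2 gave 2 in osteoarthritic against healthy, 3 in coacervate against osteoarthritic, 2 in coacervate against HA, 2 in HA against healthy and 1 in coacervate against healthy. HA against healthy alone gave 3. Without osteoarthritic replicates 2 and 3 there were 2 in the 4-group test, 4 in osteoarthritic against healthy and 2 in coacervate against HA. Leaving out each library gave 0 to 2 in the 4-group test, 0 to 4 in osteoarthritic against healthy (4 without osteoarthritic replicate 1) and 0 to 5 in coacervate against osteoarthritic (5 without replicate 1, 4 without replicate 4).

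Calls over all genes were 15 to 1133 without each library and 8 to 418 under other settings in osteoarthritic against healthy (72 reported), 0 to 2074 and 0 to 797 in coacervate against osteoarthritic (21), and 0 to 37 and 0 to 383 in HA against healthy (23). With 0 reported, they were 0 to 11 and 0 to 325 in coacervate against HA (149 without osteoarthritic replicates 2 and 3), 0 to 1 and 0 to 8 in HA against osteoarthritic, and 0 to 1 and 0 to 18 in coacervate against healthy. The 4-group test gave 7 to 320 and 4 to 735 (42). Without osteoarthritic replicates 2 and 3 there were also 169 in osteoarthritic against healthy, 3 in coacervate against osteoarthritic, 94 in HA against healthy and 115 in the 4-group test. Replicate numbers did not pair the libraries: deviations of same-numbered libraries had r over 0.1 in 4 of 24 pairs (-0.386 to 0.211), and 1 of 16 libraries was closest to its own number. The replicate block left 0 members called, gave Fgfr1 in coacervate against osteoarthritic a difference of 0.011, and gave 26, 0 and 0 calls over all genes in osteoarthritic against healthy, coacervate against osteoarthritic and HA against healthy. Depth limits Fgf2 and Fgf18 most, with 0 to 41 and 19 to 102 counts per library.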
